A study of Mus musculus with 7 samples.

Results

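Transcripts of single nuclei were examined for 10 genes of the death receptor and necroptosis pathway in mouse small cell lung cancer (SCLC). The genes were taken from a fixed list of symbols and all 10 were present among the 56941 genes of each of the 4 count matrices. They were the receptors Fas, Tnfrsf10b and Tnfrsf1a, the adaptor Fadd, the protease gene Casp8 and its inactive relative Cflar, the kinase Ripk1 and the deubiquitinase gene Cyld, and the necroptosis effectors Ripk3 and Mlkl. Nuclei came from fresh-frozen endpoint lung tumors of 4 male mice on a C57BL/6 background. The animals RP1 and RP2 carried floxed Rb1 and Trp53 (Rb1 fl/fl, Trp53 fl/fl), and RPC1 and RPC2 carried a conditional Casp8 as well, which the labels write as Casp8-/-. All 4 animals had inhaled an adenovirus with Cre recombinase under the CMV promoter. That promoter is not restricted to tumor cells, and whether non-tumor nuclei of a tumor had lost the alleles was not determined. Each of the 7 libraries of the study pooled nuclei of all 4 animals, so the animal was the replicate (n = 2 per genotype), and RP and RPC below mean the animals so labelled.

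Ligands of the TNF family bind death receptors on the cell surface. Fas and the TRAIL receptor encoded by Tnfrsf10b recruit FADD and caspase 8, which starts apoptosis, and cFLIP (Cflar) tunes caspase 8 at the same complex. TNFR1 (Tnfrsf1a) assembles RIPK1 instead, and CYLD trims the ubiquitin chains that hold RIPK1 in its survival complex. Where caspase 8 does not cleave RIPK1, RIPK3 can phosphorylate MLKL, which ruptures the plasma membrane in necroptosis, an inflammatory form of cell death. SCLC is a neuroendocrine tumor, and its mouse model is started by loss of Rb1 and Trp53.

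After filtering, 38254 of 38353 nuclei remained (8363, 8874, 10853 and 10164 of RP1, RP2, RPC1 and RPC2), and no barcode was shared between animals. The median depth was 2255 and 2223 transcripts per nucleus in the RP animals and 3392 and 2767 in the RPC animals. Rn18s ribosomal RNA took at least 8.51% of the transcripts in each RP animal and 3.13% and 5.38% in the RPC animals, and without ribosomal and mitochondrial RNA the genotype value of Casp8 in tumor-like nuclei, given below, was 0.38 on the log2 scale in place of 0.37. Clustering gave 32281 tumor-like nuclei (7153, 7259, 9154 and 8715), in which all 14 neuroendocrine markers were detected at a summed level of 3424 to 4435 CPM (counts scaled to equal library totals). A cluster was called tumor-like where no list of non-tumor markers stood out, and no level of neuroendocrine markers was required. Small classes were named endothelial-like (278 nuclei), macrophage- or monocyte-like (474), B cell-like (170), T or NK cell-like (106), club-like (391), alveolar type 1-like (154) and alveolar type 2-like (174). The first 3 of these held at least 20 nuclei in each animal. A further 2777 nuclei in clusters with non-tumor markers and a high level of tumor markers were set apart. They held all nuclei named fibroblast (134), smooth muscle or pericyte (307), ciliated (73) and mesothelial (44), so the orders of classes below do not cover these.

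The 10 genes lie on 7 chromosomes, and only Casp8 and Cflar are near each other (GRCm39). Casp8 spans chr1:58834375-58886665 and Cflar chr1:58750321-58798047, both on the forward strand and 36.3 kb apart. Sequence just upstream of a RefSeq start is shown for 4 genes that were picked after their values were seen: Casp8 and Mlkl, which tumor-like nuclei transcribed, and Ripk3 and Fas, which they almost did not. Each run is the 250 bases before that start, read 5′ to 3′ on the strand of the gene (GRCm38.p6). The start need not be that of the span above, which is from another annotation and build. Going by the positions of Cflar in both builds, the Casp8 window probably lies inside the Casp8 span and not before it. Capitals mark a match to GGGCGG, the letters bound by SP family factors.
Casp8 (chr1:58802252-58802501, forward strand): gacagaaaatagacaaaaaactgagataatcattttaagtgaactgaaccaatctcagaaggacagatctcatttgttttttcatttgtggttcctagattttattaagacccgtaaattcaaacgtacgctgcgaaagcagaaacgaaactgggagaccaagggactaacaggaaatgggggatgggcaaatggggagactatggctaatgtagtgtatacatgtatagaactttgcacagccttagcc
Mlkl (chr8:111338206-111338455, reverse strand): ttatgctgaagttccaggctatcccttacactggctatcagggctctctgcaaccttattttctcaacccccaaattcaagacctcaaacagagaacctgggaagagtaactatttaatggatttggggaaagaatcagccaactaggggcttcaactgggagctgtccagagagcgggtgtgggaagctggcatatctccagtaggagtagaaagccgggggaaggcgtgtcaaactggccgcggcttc
Ripk3 (chr14:55788858-55789107, reverse strand): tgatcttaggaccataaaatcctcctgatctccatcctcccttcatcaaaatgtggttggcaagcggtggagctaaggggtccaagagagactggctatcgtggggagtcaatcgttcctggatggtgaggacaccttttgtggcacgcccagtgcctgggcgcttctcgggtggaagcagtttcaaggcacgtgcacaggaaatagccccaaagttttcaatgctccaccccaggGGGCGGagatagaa
Fas (chr19:34290409-34290658, forward strand): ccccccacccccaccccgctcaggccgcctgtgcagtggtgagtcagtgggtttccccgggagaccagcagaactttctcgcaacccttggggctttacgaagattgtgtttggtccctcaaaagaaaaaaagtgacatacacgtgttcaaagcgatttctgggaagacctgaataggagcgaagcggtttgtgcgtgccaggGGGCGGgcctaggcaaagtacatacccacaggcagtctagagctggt
Both Ripk3 and Fas held 1 match to GGGCGG on either strand and Casp8 and Mlkl held none, while 32.7% of all 32851 windows of this length held at least 1. None of the 4 windows matched the searched IRF motif (in 2.98% of windows), CCGGAAGT of the ETS family (2.88%) or the NF-kB motif (17.6%) on either strand, so no matches of different motifs overlapped. The dinucleotide CG occurred 5 times in the window of Casp8, 5 times in Mlkl, 8 times in Ripk3 and 11 times in Fas, beside a median of 6 over all windows. Cyld, which tumor-like nuclei also transcribed, held 1 match to GGGCGG and 18 CG, so neither measure split the genes by their tumor level. In all, 9 of the 10 genes had a window, and Tnfrsf10b was the exception.

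The conditional gene was examined first. Casp8 was present in tumor-like nuclei of every animal, at 56.9 and 60.5 CPM in the RP animals and 91.6 and 66.8 CPM in the RPC animals (11129 transcripts in all; here and below, values of a genotype are given in the order of the replicate numbers). The RPC animals lay above the RP animals and not below them. The counts are summed over the whole gene, and the sources used here do not say which exons the conditional allele loses, so these values neither check nor contradict the genotype labels. An RNA that lacks some exons is counted as Casp8 all the same, and nothing here measures the protein.

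Per length, the 10 genes differed widely in tumor-like nuclei. Pooled over the animals and divided by the span of the gene, the level was 1.73 CPM per kb for Mlkl, 1.67 for Tnfrsf1a, 1.62 for Cyld, 1.39 for Casp8, 1.08 for Ripk1 and 0.767 for Cflar. Fadd followed at 0.458 and Tnfrsf10b at 0.150. Ripk3 (0.0134) and Fas (0.0114) stood at the bottom. Divided by exon length instead, Ripk3 was lowest (0.0206 CPM per kb of exon), followed by Fas (0.182), Tnfrsf10b (0.445) and Fadd (0.604), so the same 4 genes were at the bottom on both scales. Among the 6 others the order depended on the scale, and Casp8 was highest by exon length (23.5).

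Of the receptor genes, Fas had the widest range over the classes. In tumor-like nuclei Fas stood at 0.468 and 0.474 CPM in RP and 0.379 and 0.415 in RPC (13, 13, 20 and 19 transcripts). The endothelial-like nuclei of these animals had 91.3 and 152 CPM in RP and 304.5 and 313.2 in RPC (10, 21, 37 and 44 transcripts). Endothelial-like nuclei exceeded tumor-like nuclei in each of the 4 animals, by 520-fold in the pooled sums (219.8 CPM, 95% interval 181 to 264.5, against 0.423, 0.326 to 0.539). The intervals are exact Poisson intervals of the pooled counts and cover counting error only. T or NK cell-like nuclei came next (77.0 CPM, from 10 transcripts), with an interval of 36.9 to 141.6 that did not reach the endothelial one. The other classes lay between 6.61 and 18.9 CPM with overlapping intervals, each above that of the tumor. Where the endothelial clusters of high tumor marker level were added, the mean over the animals was 61.0 CPM in place of 215.3, still above the tumor in all 4. At a clustering resolution of 0.8, which drew the endothelial-like class differently, that mean was 309.0 CPM. Without nuclei deeper than 4 times the median of their animal the mean tumor level was 0.281 CPM in place of 0.434. Markers of endothelial cells stood in tumor-like nuclei at a median of 0.179% of their endothelial level, and Fas at 0.192%. The low Fas level of tumor-like nuclei was thus near that of genes these nuclei should lack, and whether it came from RNA of other cells was not tested.

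Tnfrsf10b, the TRAIL receptor of the mouse, was also highest in endothelial-like nuclei. Its tumor level was 1.87 and 2.62 CPM in RP and 3.57 and 1.70 in RPC, and its endothelial level 100.5 and 79.6 in RP and 74.1 and 85.4 in RPC. The 2 classes did not overlap in any animal and differed by 33.3-fold in the pooled sums (84.4 against 2.54 CPM). Its share of the endothelial level, 3.01%, was above that of the endothelial markers in the tumor. Club-like nuclei had 16.6 CPM (interval 10.3 to 25.3), below the endothelial interval of 61.1 to 113.7. Tnfrsf1a, the main receptor of TNF, ranged from 2.05 CPM in alveolar type 1-like nuclei (1 transcript) to 69.3 in T or NK cell-like nuclei (9 transcripts). Macrophage- or monocyte-like nuclei exceeded tumor-like nuclei in all 4 animals for Tnfrsf1a (50.8 ± 9.75 against 24.0 ± 2.70 CPM, SD, n = 4).

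**Figure D1:**
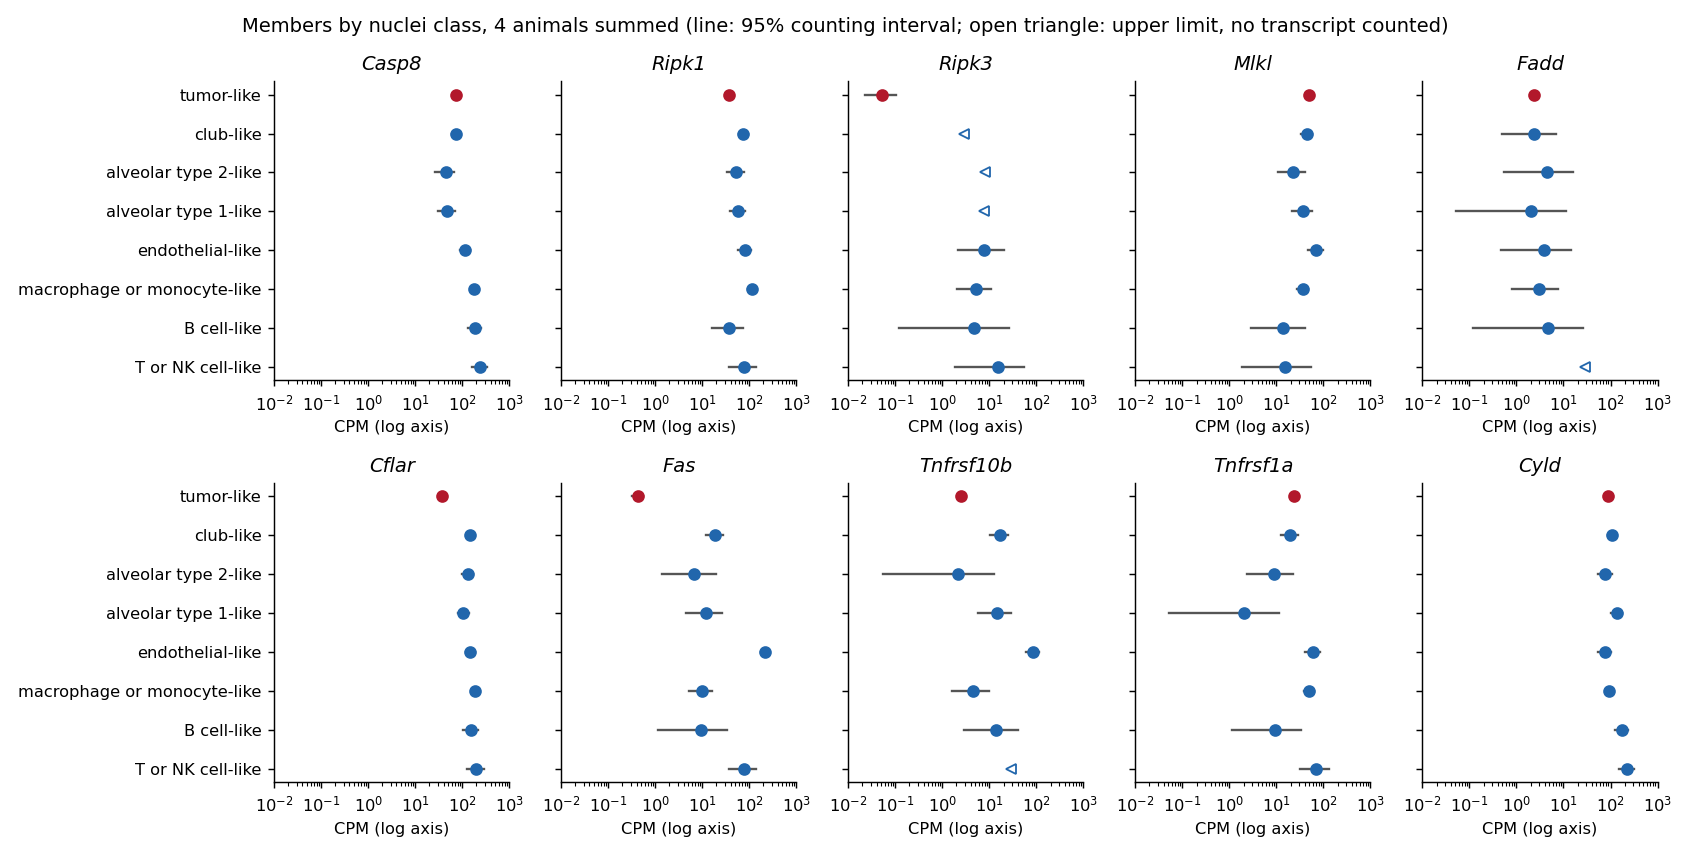
Pooled level of each of the 10 genes (CPM, log axis) in the 8 marker-defined classes of nuclei, with the 4 animals summed, lines for exact 95% Poisson intervals and an open triangle for the upper limit where no transcript was counted. Fas reached 219.8 CPM in endothelial-like and 0.423 CPM in tumor-like nuclei, and Ripk3 stood at 0.0521 CPM in the tumor.

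The adaptor and the initiator protease were not equally visible. Fadd, which links Fas to caspase 8, was counted 363 times in tumor-like nuclei (2.36 CPM) and at most 4 times in any other class, so the other classes could not be told from the tumor at this depth. Casp8 itself was measured well. It was highest in T or NK cell-like (238.7 CPM), B cell-like (183.3) and macrophage- or monocyte-like nuclei (181.7), whose intervals overlapped. Endothelial-like nuclei followed (115.8), then club-like (74.2) and tumor-like nuclei (72.4), whose intervals also overlapped, and alveolar type 1-like (47.1) and type 2-like nuclei (44.1) were lowest. In the classes with enough nuclei in each animal, Casp8 stood at 179 ± 18.1 CPM in macrophage- or monocyte-like, 193 ± 64.9 in B cell-like and 116 ± 24.2 in endothelial-like nuclei, against 69.0 ± 15.7 in tumor-like nuclei (SD, n = 4). All 3 exceeded the tumor in each of the 4 animals. At a clustering resolution of 0.8 the endothelial-like value (94.5 against 68.5 CPM) was above the tumor in 2 of the 4.

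Cflar, the partner of caspase 8, was lowest in the tumor. The tumor level was 31.5 and 44.1 CPM in RP and 35.1 and 36.9 in RPC, while the other classes had 106 to 193 CPM in the pooled sums. The interval of the tumor (35.7 to 37.6) did not reach that of any other class, and the 7 other classes overlapped with their neighbours in the order. Pooled, it was 19.0% to 34.4% of the level in the other classes.

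Ripk1 was lowest in tumor-like nuclei (37.6 CPM, interval 36.6 to 38.6), together with B cell-like nuclei (37.6 CPM from 8 transcripts). The tumor interval also overlapped those of alveolar type 1-like, alveolar type 2-like and T or NK cell-like nuclei. Ripk1 was highest in macrophage- or monocyte-like nuclei (112 CPM, interval 94.8 to 131.3). Cyld ranged from 76.5 CPM in endothelial-like to 223.3 in T or NK cell-like nuclei, and its level in the tumor (89.0 CPM) lay inside the intervals of club-like, macrophage- or monocyte-like, alveolar type 2-like and endothelial-like nuclei. B cell-like nuclei exceeded the tumor for Cyld in all 4 animals (178 ± 39.98 against 84.6 ± 18.5 CPM, SD, n = 4).

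The necroptosis effectors were unlike each other. Ripk3, the kinase that activates MLKL, was counted 0 and 3 times in the tumor-like nuclei of the RP animals and 2 and 3 times in those of the RPC animals, which is 0.0521 CPM over all of them (interval 0.0225 to 0.103). Macrophage- or monocyte-like nuclei held 1, 3, 1 and 2 transcripts in this order of animals, which is 5.19 CPM (2.09 to 10.7), and endothelial-like nuclei 1, 3, 0 and 0 (7.85 CPM, 2.14 to 20.1). Both intervals lie above that of the tumor, although each rests on fewer than 10 transcripts. Club-like, alveolar type 1-like and alveolar type 2-like nuclei held none, which allows a level above that of the tumor given their small totals. In contrast, Mlkl, the executioner of necroptosis, was present in tumor-like nuclei at 45.1 and 45.8 CPM in RP and 56.0 and 48.4 in RPC. Its pooled tumor level (49.9 CPM) was second to that of endothelial-like nuclei (68.7 CPM, interval 47.8 to 95.5), which overlapped it. Macrophage- or monocyte-like nuclei (33.6 ± 16.6 CPM) and B cell-like nuclei (11.6 ± 13.5 CPM) were below the tumor (48.8 ± 4.98 CPM, SD, n = 4) in each of the 4 animals. With the clusters of high tumor marker level added, 1 of the 4 animals lay above the tumor in each of these 2 classes. An Mlkl transcript was thus found in tumor-like nuclei at a level at which Ripk3 was hardly counted.

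These orders were read against all genes. Genes were counted where a class held at least 10 of their transcripts or would have held as many at the tumor level. Of the members with enough counts in endothelial-like nuclei, 5 of 8 were above the tumor in all 4 animals (Casp8, Ripk1, Cflar, Fas and Tnfrsf10b), where 21.9% of all such genes were, and none was below, where 34.3% of all were. Casp8 would leave this count at the clustering resolution of 0.8. In macrophage- or monocyte-like nuclei 4 of 7 were above (Casp8, Ripk1, Cflar and Tnfrsf1a; background 27.3%) and Mlkl was below (background 35.9%). In B cell-like nuclei 3 of 4 were above (Casp8, Cflar and Cyld; background 25.2%) and Mlkl was below (background 31.6%). A member that passed the minimum only through the class where it was high had to differ, so these counts describe the members and test nothing. Tumor markers stood in endothelial-like nuclei at 17.4% to 27.7% of their tumor level, in macrophage- or monocyte-like nuclei at 10.5% to 35.4% and in B cell-like nuclei at 8.52% to 18.1%, and the part of this in the members' levels was not tested. With the mixed clusters added, all 12 higher values stayed above the tumor in all 4 animals but were smaller, as for Ripk1 in macrophage- or monocyte-like nuclei (66.2 CPM in place of 111.3).

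The comparison of RPC with RP asked which members differed with the Casp8 genotype within tumor-like nuclei. The fit covered 20115 genes and called none (0.0%), although 3041 had an unadjusted p under 0.05, and the smallest adjusted p was 0.150. Of the 10 members 9 passed the filter on low counts, and Ripk3 did not. None was called, and 1 had an unadjusted p under 0.05. DESeq2 called no member and 1.71% of the 36607 genes to which it gave a p. Genes of low counts stayed in that base, so the share is not comparable with one over the 20115. Less RNA of a gene per nucleus and fewer nuclei that make it cannot be told apart in sums.

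Cyld was the member with an unadjusted p under 0.05. It stood at 69.4 and 71.7 CPM in RP1 and RP2 and at 109.5 and 87.6 in RPC1 and RPC2 (70.5 ± 1.61 against 98.5 ± 15.5 CPM, SD, n = 2). The genotypes did not overlap, and the log2 fold change was 0.42 (SE 0.16, adjusted p = 0.321, edgeR quasi-likelihood test). It was the one member whose ranges over the 7 sublibraries of each animal were also apart, at 64.6 to 80.7 CPM in RP and 80.9 to 113.4 CPM in RPC. Sublibraries and wells split the nuclei of 1 animal and are not replicates of a genotype.

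Casp8 stood at 58.7 ± 2.59 CPM in RP and 79.2 ± 17.5 in RPC, which differed by 0.37 on the log2 scale (SE 0.19, adjusted p = 0.401, edgeR). The value turned on RPC1. Without RPC1 the log2 fold change was 0.15, and without RPC2 it was 0.59. Ripk1, the kinase at the fork between survival and death, stood at 25.4 and 35.7 CPM in the RP and 45.3 and 37.2 in the RPC animals. Ripk1 differed by 0.37 on the log2 scale (SE 0.22, adjusted p = 0.451, edgeR), and it was 0.17 without RP1 and 0.63 without RP2. Mlkl differed by 0.14 on the log2 scale (SE 0.15, adjusted p = 0.679, edgeR), with the animals of RPC above those of RP; the value was 0.05 without RPC1 and 0.24 without RPC2.

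Of the 9 tested members, 5 had log2 fold changes above 0 and 4 below, where the median over all genes tested was -0.01. Tnfrsf1a stood at 25.8 and 26.5 CPM in RP and 23.0 and 20.7 in RPC, and the genotypes did not overlap (log2 fold change -0.32, SE 0.17, adjusted p = 0.410, edgeR). Fas was also apart (-0.31, SE 0.39, adjusted p = 0.720, edgeR), but from 13 to 20 transcripts per animal. Fadd (-0.26), Cflar (-0.13) and Tnfrsf10b (0.17) had overlapping genotypes, and leaving out 1 animal turned the sign of each (Fadd 0.17 without RP1, Cflar 0.12 without RP2, Tnfrsf10b -0.44 without RPC1). In all, both RPC animals lay above both RP animals for 4 of the 9 tested members (Casp8, Ripk1, Mlkl and Cyld), as for 24.7% of all tested genes, and below for 2 (Fas and Tnfrsf1a), as for 25.6%.

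**Figure D2:**
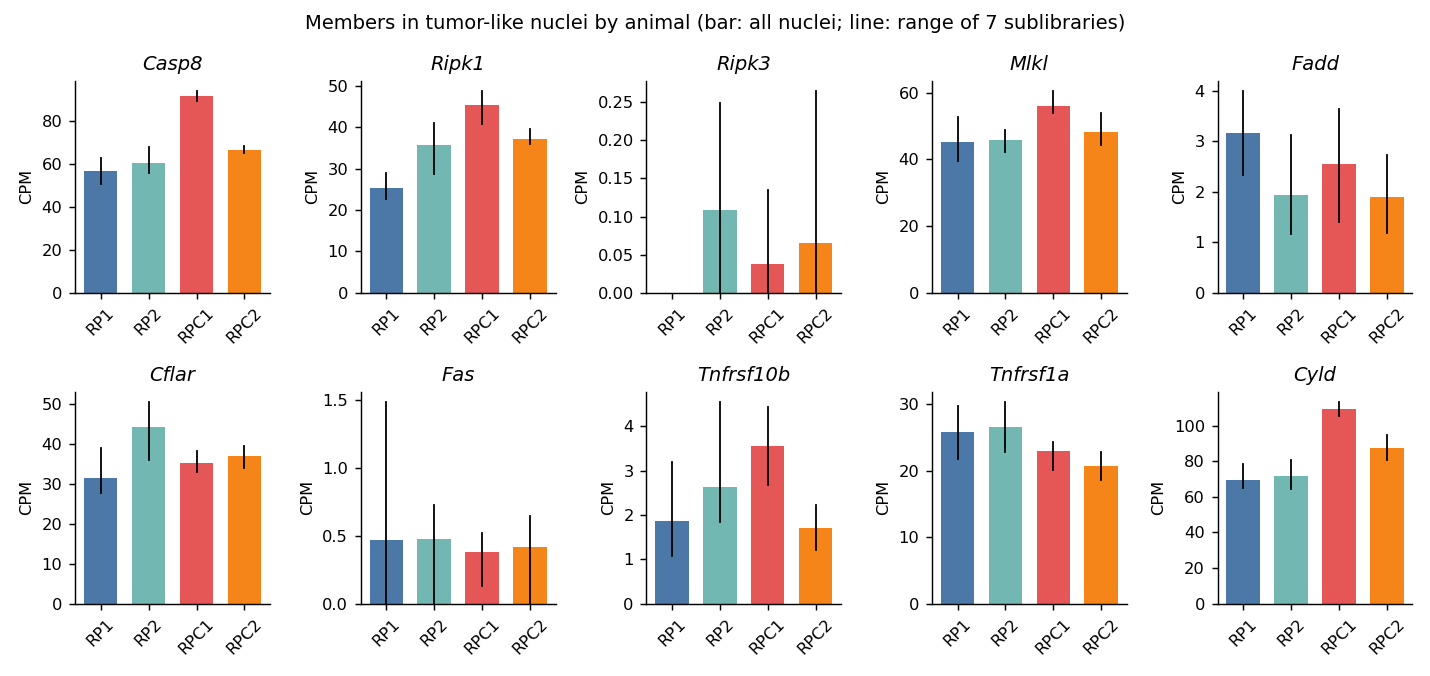
Level of each of the 10 genes in tumor-like nuclei by animal (CPM, a separate scale from 0 for each gene), with 1 bar per animal and a line for the range over its 7 sublibraries. Cyld stood at 69.4 and 71.7 CPM in RP and 109.5 and 87.6 in RPC, and Ripk3 was at or near 0 in all 4 animals.

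**Figure D3:**
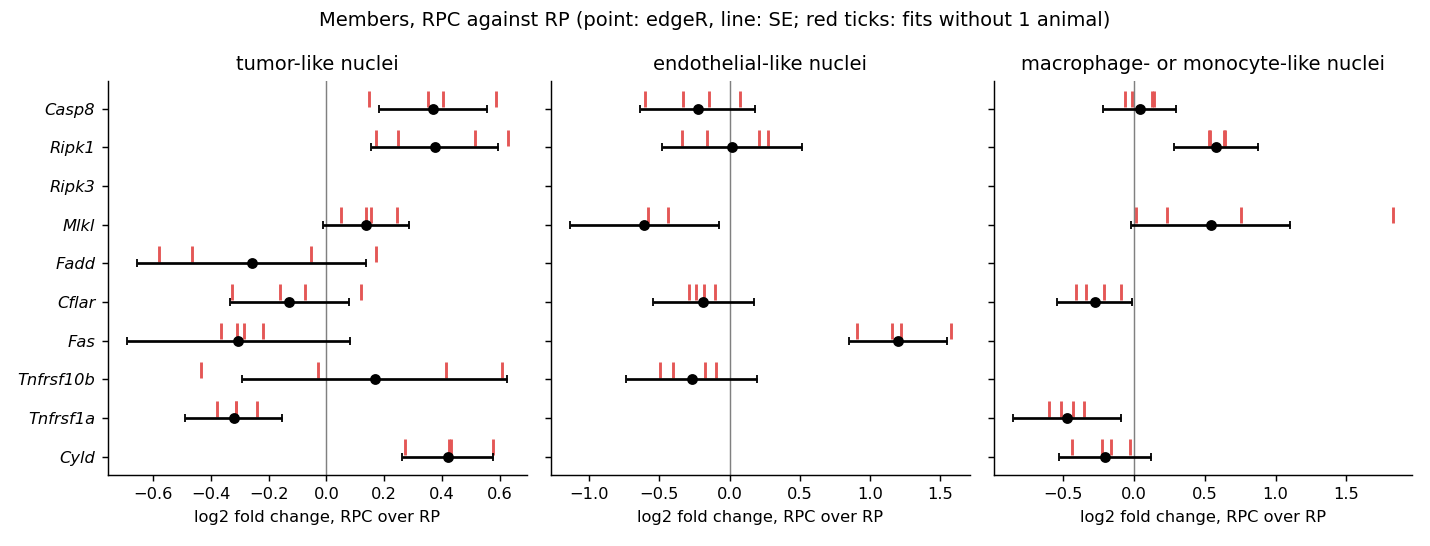
Log2 fold changes of RPC over RP for the members tested in the tumor-like, macrophage- or monocyte-like and endothelial-like classes, with lines of 1 SE and red ticks for the fits without 1 animal. None had an adjusted p under 0.05, and Fas in endothelial-like nuclei lay farthest from 0, at 1.20.

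Shares of nuclei with a transcript were compared after each nucleus had been thinned to 1000 transcripts, since RPC nuclei were deeper. This left out 794 and 748 shallower tumor-like nuclei of the RP and 136 and 440 of the RPC animals. Casp8 was then found in 5.27% and 5.41% of RP and 8.37% and 5.97% of RPC tumor-like nuclei, where the unthinned shares of the same nuclei were 17.9%, 18.3%, 31.7% and 23.3%. The difference was 1.83 percentage points (5.34% ± 0.0976 against 7.17% ± 1.70, SD, n = 2; two-sided exact permutation test, p = 0.333, the smallest that 2 against 2 can give). Cyld was found in 6.68% and 6.76% of RP and 10.4% and 8.12% of RPC nuclei, again with p = 0.333 in the exact permutation test. Over the 10 members the adjusted p of both was 0.667. Fas was found in 3, 6, 1 and 0 nuclei. Ripk3 was found in 0 of 6359, 6511, 9018 and 8275 thinned nuclei, which allows a share of nuclei with a counted transcript at that depth of up to 0.0472%, 0.0461%, 0.0333% and 0.0363%, and sets no limit on nuclei that express the gene. Unthinned, 0, 3, 2 and 3 of these nuclei held a Ripk3 transcript.

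Tumor-like nuclei fell into clusters that were mostly of 1 animal, and the members were followed through the 13 pairs of cluster and animal with at least 200 nuclei. Casp8 ranged from 41.9 to 69.1 CPM over 4 clusters of RP1, from 59.0 to 63.0 over 2 of RP2, from 66.0 to 108.1 over 3 of RPC1 and from 37.8 to 70.6 over 4 of RPC2. The ranges of the genotypes overlapped. The highest Casp8 value came from a cluster of 1816 RPC1 nuclei with a deep median (5890.5 transcripts) and 2540 CPM of the proliferation genes Mki67 and Top2a together. The same cluster had the highest Mlkl (69.3 CPM, interval 65.6 to 73.2). The largest RPC1 cluster, with 830.3 CPM of the proliferation genes, had 47.1 CPM of Mlkl (44.6 to 49.8). In RPC2 the cluster with most Mki67 and Top2a (2656 CPM) again had the most Mlkl (54.0 CPM, 51.2 to 56.9), and the cluster with the least (808.2 CPM) had the least (38.7 CPM, 35.5 to 42.1). Depth differed between these clusters in the same direction (medians of 5311 and 3020.5 transcripts), and its part was not tested. In RP1, the clusters with 518.9 and 1520 CPM of Mki67 and Top2a had 44.7 (37.65 to 52.6) and 45.7 CPM (42.6 to 48.9) of Mlkl, with overlapping intervals. Mlkl ran from 41.8 to 53.9 CPM over the 4 clusters of RP1 and from 43.9 to 47.5 over the 2 of RP2. Both ends of the RP1 range lay in clusters other than those just named. The comparison of Mlkl with Mki67 and Top2a was added after the values were seen. It is given for some of the 13 pairs only and shows no general link. Ripk3 was at or below 0.193 CPM in each of the 13.

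**Figure D4:**
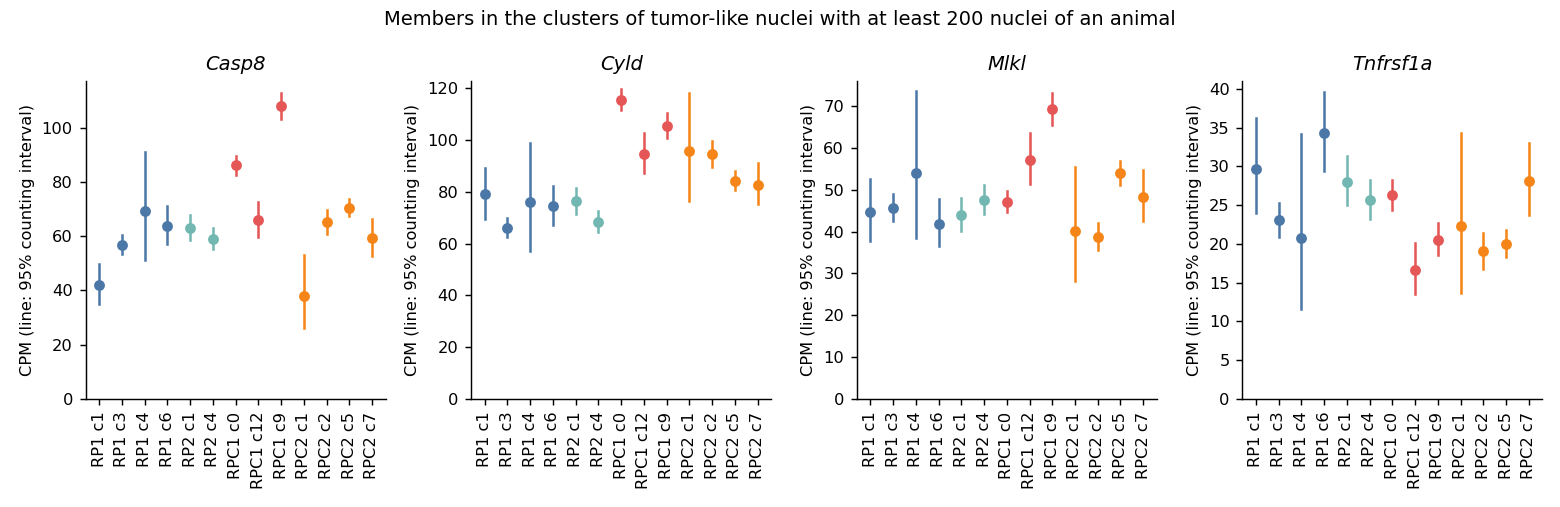
Levels of Casp8, Cyld, Mlkl and Tnfrsf1a (CPM) in the tumor-like clusters with at least 200 nuclei of an animal, named by animal and cluster number (c), with lines for exact 95% counting intervals. Casp8 ran from 37.8 to 70.6 CPM within RPC2 and from 66.0 to 108.1 CPM within RPC1.

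In endothelial-like nuclei 6 members passed the filter of the fit, which covered 3070 genes and called none (0.0%; DESeq2 also called 0, and 329 had p under 0.05 before adjustment). Fas had the largest difference of the members. As given above, both RPC animals (304.5 and 313.2 CPM) lay above both RP animals (91.3 and 152 CPM), as for 21.6% of the genes tested. The log2 fold change was 1.20 (SE 0.35, adjusted p = 0.251, edgeR). It stayed above 0 in 9 alternatives (0.73 to 1.58; adjusted p from 0.0683 to 0.997). After thinning to 1000 transcripts, Fas was found in 8.51% and 14.8% of RP and 34.8% and 18.6% of RPC endothelial-like nuclei (exact 95% binomial intervals 2.37% to 20.4%, 6.62% to 27.1%, 21.4% to 50.2% and 10.3% to 29.7%). In tumor-like nuclei of the same animals that share was at most 0.0922%. The summed level of the 11 endothelial markers moved the same way, from 9024 and 10730 CPM in RP1 and RP2 to 13800 and 15400 in RPC1 and RPC2. The class joined a larger cluster (43, 82, 45 and 78 nuclei of RP1, RP2, RPC1 and RPC2) and a small unlike one (11, 4, 4 and 11). The small cluster had Reln, Mmrn1, Lyve1 and Flt4 as its top genes. The part of marker level and class make-up in the Fas result was not tested. Casp8 in endothelial-like nuclei overlapped between the genotypes (109.6 and 130.3 against 139.9 and 85.4 CPM; log2 fold change -0.23, SE 0.41, adjusted p = 0.889, edgeR). Mlkl was lower in both RPC animals (82.2 and 79.6 against 49.4 and 64.1 CPM; -0.61, SE 0.53, adjusted p = 0.727, edgeR), as were 20.6% of the genes tested. Ripk1 (0.02), Cflar (-0.19) and Tnfrsf10b (-0.27) were also not called.

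In macrophage- or monocyte-like nuclei 6 members were tested among 6191 genes, and again none was called (0.0% of all; DESeq2 called 11, and 631 had p under 0.05 before adjustment). Ripk1 had the largest difference, with 90.4 and 80.8 CPM in RP and 145.4 and 128.5 in RPC (log2 fold change 0.58, SE 0.30, adjusted p = 0.536, edgeR), and 21.5% of the genes tested had both RPC animals above both RP animals. The summed level of the 13 macrophage or monocyte markers in these nuclei was 3150 and 3916 CPM in RP and 5328 and 5045 in RPC. Tumor markers stood at 35.4% and 26.1% of their tumor level in RP and 10.5% and 24.4% in RPC. The class joined unlike clusters in shares that differed between the animals. A cluster with Atp6v0d2 and Chil3 among its top genes held 30, 112, 74 and 51 nuclei of RP1, RP2, RPC1 and RPC2. The other, with Ms4a7 and Stab1, held 67, 65, 29 and 46. The part of marker levels and class make-up in the members' values, Ripk1 among them, was not tested. Casp8 differed by 0.04 on the log2 scale (165.8 and 173.8 against 205.4 and 170 CPM). Mlkl differed by 0.54 (SE 0.56), which ran from 0.02 without RP1 to 1.83 without RP2. Tnfrsf1a differed by -0.48 (SE 0.38, adjusted p = 0.698, edgeR), Cflar by -0.28 (SE 0.26) and Cyld by -0.21 (SE 0.32). On CPM scaled by TMM both RPC animals lay below both RP animals for these 3, as for 21.3% of the genes tested, and above for 1, Ripk1. On plain sums the genotypes overlapped for Cflar and Cyld. In B cell-like nuclei, which were too few for a fit, Casp8 stood at 142.1 and 133.6 CPM in RP and 262.9 and 233.0 in RPC, from 14, 4, 12 and 9 transcripts.

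The other genes of the pathway formed a list of 62, from ligands to the regulators of MLKL. In the tumor fit 56 of them were tested and none was called, 2 had an unadjusted p under 0.05 and a higher level in RPC, and 7 had one and a lower level, beside 3041 of the 20115 genes in both directions. Of the 56, 20 had a log2 fold change above 0 and 36 below, with a median of -0.08 beside -0.01 over all genes tested. The animals were apart with RPC higher in 13 of the 56 (24.7% of all genes tested) and with RPC lower in 19 (25.6% of all). By role, 0 of 1 ligand, 2 of 6 other receptors, 1 of 4 sensors and 1 of 5 receptor complex adaptors had an unadjusted p under 0.05. So had 2 of 12 ubiquitin ligases, deubiquitinases and their partners and 1 of 12 kinases upstream of RIPK1 and their partner proteins. The same held for 1 of 8 apoptotic caspases and mitochondrial proteins and 1 of 8 regulators of MLKL and RIPK3.

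The 6 pathway genes with the smallest p all stood lower in both RPC animals, on CPM scaled by TMM. Itpk1, an inositol phosphate kinase whose products MLKL needs, stood at 152.5 and 158.2 in RP and 101.8 and 105.6 in RPC (log2 fold change -0.58, SE 0.13, adjusted p = 0.272, edgeR). Bid, which caspase 8 cleaves to reach the mitochondria, stood at 9.06 and 8.58 in RP and 4.39 and 4.18 in RPC (-1.04, SE 0.25, adjusted p = 0.272, edgeR). It was the one pathway gene that DESeq2 called (adjusted p = 0.0367), and over 16 alternatives its adjusted p ran from 0.0367 to 0.626. Tnfrsf21 (death receptor DR6) differed by -0.45 and Traf2, which holds the ubiquitin ligases at TNFR1, by -0.56. Rnf31 and Rbck1, both of the linear ubiquitin chain complex, differed by -0.57 and -0.47. Their adjusted p lay between 0.287 and 0.307 (edgeR).

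The pathway list was also counted across the classes. In macrophage- or monocyte-like nuclei 28 of 53 pathway genes with enough counts exceeded the tumor in all 4 animals (background 27.3%) and 5 were below (35.9%). In endothelial-like nuclei 12 of 41 were above (background 21.9%) and 6 below (34.3%), and in B cell-like nuclei 13 of 24 were above (background 25.2%) and 2 below (31.6%). As with the members, a pathway gene that passed the minimum only through the class where it was high had to differ. These counts describe the list and test nothing.

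Genes next to Casp8 on chromosome 1 were examined in the tumor fit, 10 on each side. Of the 20, 15 had a log2 fold change above 0, with a median of 0.25 and a range of -0.61 to 0.83, where the median over all genes was -0.01. In 11 both RPC animals were above both RP animals (24.7% of all genes tested), in 3 they were below (25.6% of all), and in 6 the genotypes overlapped. None was called, and 2 had an unadjusted p under 0.05. Cflar, the nearest tested gene upstream, differed by -0.13 (SE 0.21), and Gm28802, the nearest downstream, by 0.16 (SE 0.63). The value of Casp8 itself (0.37) lay within the range of its neighbours.

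**Figure D5:**
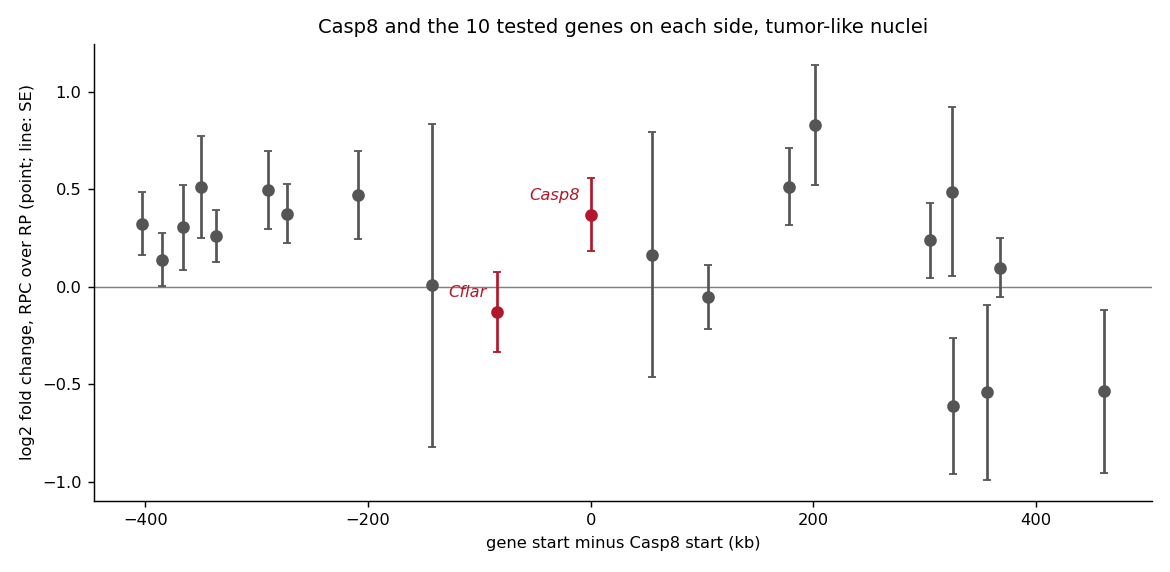
Log2 fold changes of RPC over RP in tumor-like nuclei for Casp8 and the 10 tested genes on each side, with bars of 1 SE, against the distance of each start from that of Casp8 (kb). The neighbours had a median of 0.25, and Casp8 stood at 0.37.

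Some members share ground with other genes, and how the counting used strand is not stated. Serpinb6a, on the opposite strand, overlaps Ripk1 by 672 bases, 241 of them exonic. It stood at 26.6 and 28.1 in RP and 58.0 and 50.7 CPM scaled by TMM in RPC (log2 fold change 0.99, SE 0.16, adjusted p = 0.267, edgeR), and within the shared bases reads of Ripk1 and of this neighbour may not be told apart. Faddos overlaps Fadd by 4198 bases on the opposite strand (-1.26, adjusted p = 0.346, edgeR), and Plekhg6 overlaps Tnfrsf1a by 19 bases. Gm37760 lies inside Casp8, and Gm56758 spans all of Ripk3 on the opposite strand.

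The pattern of each member was compared with that of 7864 genes over 16 points, the 4 classes with enough nuclei in each of the 4 animals. The points of 1 animal share their libraries and their depth. Genes closest to Casp8 were Trim30d (Pearson r = 0.93), Rab43 (0.92), Irf2 (0.92), Arhgap25 (0.91) and Klhl6 (0.91). Among the members, Fas and Tnfrsf10b were closest (0.86), and Mlkl and Cyld were most opposed (-0.79). Of the 16 points, 12 are from non-tumor nuclei.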

How the data were processed

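Nuclei of 4 mouse SCLC tumors were barcoded by split pooling (Parse Evercode). The authors aligned reads to GRCm39 and deposited counts of transcripts per nucleus and gene, not normalized, as 1 matrix per animal. Matrix sums equalled the deposited totals in all 38353 nuclei. The 7 suffixes on the barcodes could not be tied to the 7 libraries in the labels, and 8 columns of the table of nuclei were not used. Animals were grouped by the labels. That the replicates are separate animals rests on the labels.

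As in the study, nuclei were kept with at least 300 counts, at most 10% mitochondrial RNA and at most 12000 genes. Clustering (2000 variable genes, 20 principal components, 20 neighbors, Leiden resolution 0.4, sub-clusters at 2, seed 1) used leidenalg 0.10.2, igraph 0.11.9 and scikit-learn 1.9.0 under Python 3.11.15 (pandas 2.3.3, scipy 1.17.1, numpy 2.4.6). Clusters were named from marker lists by a rule set after they were seen, and names are reconstructions. No doublet caller was run. Mixed clusters with a high tumor marker level were set apart, and nuclei above 4 times the median depth were left out in an alternative. Clusters that stayed unnamed held 1449 nuclei.

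Counts were summed per animal and class. CPM are of these plain sums unless said otherwise. RPC was tested against RP with edgeR 4.0.16 (R 4.3.3; TMM, filterByExpr, quasi-likelihood, two-sided, Benjamini-Hochberg over all genes, called at an adjusted p under 0.05). The SE was the absolute log2 fold change over the square root of F. DESeq2 1.42.0, used in the study, was an alternative. Classes were compared with the tumor as a description, with a minimum of 10 counted or expected transcripts. Shares were compared after thinning to 1000 transcripts. Counting intervals are exact at 95%, also where a class held a count of 0. For thinned shares a count of 0 was read as allowing up to 3 nuclei. Likeness was a Pearson correlation of log2 CPM with an offset of 5, over genes of at least 20 CPM on average. Scripts were tested on simulated data, and figures used matplotlib 3.10.9.

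The members and lists were chosen with earlier results of these data known. Named genes were the 10 members, the 6 pathway genes with the smallest p, the nearest neighbours of Casp8, genes that overlap a member, and the 5 genes most like Casp8. Mki67 and Top2a, top genes of single clusters, and the likeness between members were added after the values were seen.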

Additional observations from a re-analysis of the deposited data

Results flagged for a closer look

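In 2 genes every RPC animal differed from every RP animal in opposite directions in tumor-like and endothelial-like nuclei. Mlkl had a log2 fold change of 0.14 in tumor-like and -0.61 in endothelial-like nuclei, and Fas one of -0.31 in tumor-like and 1.20 in endothelial-like nuclei. None of the 4 values had an adjusted p under 0.05 (edgeR), and the difference between the classes was not tested. The tumor-like Fas values rest on 13 to 20 transcripts per animal, and the endothelial-like Mlkl values on 6 to 11.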

How the results depend on the processing

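No member was called in any of the 3 classes fitted under any alternative run. Over all genes, edgeR called 0 in each, and single alternatives called up to 122 in endothelial-like and 262 in macrophage- or monocyte-like nuclei, both without RP2, and 626 in tumor-like nuclei (DESeq2). Of all recomputed values, 73 that answer a comparison and 605 of single genes were counted as kept. For fits this meant the same sign and side of the threshold, and for counts of genes within 1.5 times. For shares it meant the same sign, whatever the size, as for Casp8 at 9.375 points without thinning in place of 1.83. Class levels were kept within 1 SD, and where the animals differed in direction this held even if the sign turned. Among the pathway genes DESeq2 called 1, where edgeR called 0, and this was the 1 value answering a comparison that moved; the cause was not tested. At a clustering resolution of 0.8 Casp8 was above the tumor in endothelial-like nuclei in 2 of 4 animals, in place of 4.

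By the same rules 21 of the single-gene values turned sign, 17 class levels moved by at least 1 SD and 1 value (Bid) crossed the threshold. With all kept nuclei in place of tumor-like nuclei, Fas went to 0.11 and Tnfrsf10b to -0.059 on the log2 scale. With the clusters of high tumor marker level, Ripk1 in endothelial-like nuclei went to -0.029 and Cyld in macrophage- or monocyte-like nuclei to 0.39. This alternative, and one without the tumor cluster led by neuronal genes, were chosen after seeing the data. Without thinning, the RPC minus RP difference in share of tumor-like nuclei was 0.214 points for Fadd, 2.40 for Cflar, 0.041 for Fas and 1.07 for Tnfrsf1a. At 2000 transcripts it was 0.29 for Cflar and -0.0669 for Tnfrsf10b. The causes were not tested, although RPC nuclei were deeper.

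Leaving out 1 animal at a time moved the tumor values of Fadd between -0.58 and 0.17, Cflar between -0.33 and 0.12 and Tnfrsf10b between -0.44 and 0.61. It moved the endothelial values of Casp8 between -0.60 and 0.077 and Ripk1 between -0.34 and 0.27, and the macrophage- or monocyte-like value of Casp8 between -0.064 and 0.14. Shares moved between -0.98 and 0.331 points for Cflar and between -0.0694 and 0.186 for Tnfrsf10b. The lone animal of a genotype was then assumed to vary like the other genotype.

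Replicate numbers did not pair the animals: the correlation of same-numbered animals was -0.04 in tumor-like, 0.05 in endothelial-like and -0.09 in macrophage- or monocyte-like nuclei. With a replicate block, 0 genes were called in tumor-like, 15 in endothelial-like and 0 in macrophage- or monocyte-like nuclei, and Casp8 stood at 0.36 in the tumor. Depth limits Ripk3 and Fadd in every class, and Fas in tumor-like nuclei.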
